A study of Mus musculus with 6 samples.

Results

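The genes described here are 10 genes of cholesterol efflux and lipid handling that are governed by, or encode, the liver X receptors (LXR) and PPARγ: Apoe, Abca1, Abcg1, Pltp, Mylip, Lpl, Plin2, Nr1h3, Nr1h2 and Pparg. They were taken from a table of 54446 genes by name, each by the Ensembl gene ID that carries its symbol, and all 10 had an ID. RNA was sequenced from bone marrow-derived macrophages (BMDMs) of male BALB/c mice aged 6 to 8 weeks, grown for 7 days with 20% medium conditioned by L929 cells, which supplies the macrophage growth factor CSF-1. The cells were left unpolarized (M0) or were polarized for 24 hours. LPS at 50 ng/mL together with IFN-γ at 20 ng/mL was given for M1, and IL4 at 20 ng/mL for M2. Regorafenib, an inhibitor of several kinases, was added at 1 µM 1 hour before polarization, and controls received DMSO. For M0 cells the time in regorafenib is not given in the sources used here. No gene was altered in the mice, and the number of mice behind a library was not stated. The comparison asks how regorafenib changes the lipid genes of macrophages in each state of polarization, and how each state sets them.

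LXRs are nuclear receptors that bind oxysterols, which are oxidized forms of cholesterol. Nr1h3 encodes LXRα and Nr1h2 LXRβ, and each binds DNA as a partner of a retinoid X receptor (RXR). In macrophages they turn on genes that carry cholesterol out of the cell, and macrophages that cannot export it fill with cholesterol esters and become foam cells. Pparg encodes PPARγ, a receptor for fatty acids and their derivatives that is known as a gene induced by IL4 in macrophages and that also pairs with RXR.

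LXR and RXR bind best to 2 copies of the half-site AGGTCA in the same direction separated by 4 bases (DR4), and PPAR and RXR to copies separated by 1 base (DR1). The promoters of 8 of the 10 genes were read from RefSeq (GRCm38.p6), all but Lpl and Abcg1, and the stretch of each from 250 bases before to 50 bases after the start was searched on both strands for the best match to the 12 half-site bases. None of these stretches held a full match. Those of Abca1, Apoe and Plin2 are printed here as the 250 bases before the start, since Abca1 and Apoe were higher with regorafenib in M0 and M2 while Plin2 stayed within 2-fold of control in every state. They are at chr4:53159896-53160145 for Abca1, chr7:19699189-19699438 for Apoe and chr4:86670060-86670309 for Plin2, all on the minus strand and written 5′ to 3′ along the gene, with the best window for DR4 in capitals for Abca1 and the best window for DR1 in capitals for Apoe and Plin2. Of several starts that RefSeq lists for Apoe, the one farthest upstream is shown. The reference strain is not BALB/c.
Abca1: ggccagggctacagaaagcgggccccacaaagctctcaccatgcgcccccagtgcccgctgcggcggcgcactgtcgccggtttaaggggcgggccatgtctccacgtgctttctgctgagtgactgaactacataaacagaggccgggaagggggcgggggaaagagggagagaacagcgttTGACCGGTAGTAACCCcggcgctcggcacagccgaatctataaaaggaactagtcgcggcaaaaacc
Apoe: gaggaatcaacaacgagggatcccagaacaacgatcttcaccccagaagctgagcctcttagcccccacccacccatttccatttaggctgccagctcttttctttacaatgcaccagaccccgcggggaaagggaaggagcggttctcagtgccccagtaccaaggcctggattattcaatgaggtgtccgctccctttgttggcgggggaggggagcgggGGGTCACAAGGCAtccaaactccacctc
Plin2: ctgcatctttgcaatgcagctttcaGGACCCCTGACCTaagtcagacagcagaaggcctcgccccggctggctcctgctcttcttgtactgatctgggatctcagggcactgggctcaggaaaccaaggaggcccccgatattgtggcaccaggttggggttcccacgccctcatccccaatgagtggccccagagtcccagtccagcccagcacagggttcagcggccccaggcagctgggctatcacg
The Abca1 window, at -67 to -52 from the start on the opposite strand, held 9 of 12 half-site bases of DR4, and 21.9% of 32851 promoters held a match as good. In the Apoe stretch the best DR1 window lay at -28 to -16 with 9 of 12 bases, as good as in 24.6% of promoters, and the best DR4 window had 8 of 12, as in 76.9%. The Plin2 window, at -225 to -213 on the opposite strand, held 10 of 12 bases of DR1, and 3.86% of promoters held one as good. The best DR4 windows of Mylip and Pltp held 7 of 12 bases, as in 99.8% of promoters. DR1 and DR4 windows may overlap, since they share the half-site, and a match describes these letters only.

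The 6 libraries held 25359309 to 34898342 counts, with TMM scaling factors from 0.820 to 1.12. With 1 library in each condition, no difference between 2 libraries has a replicate check. The 95% intervals given with a log2 ratio cover counting error only, and no p-value is given for a pair. A gene was called higher or lower in a pair at 2-fold or more, where either library held 10 counts or more and the interval left out 0. All 10 genes passed the count minimum in every pair except Pparg between the M1 libraries. The 8 macrophage markers checked, Csf1r and Adgre1 among them, all had at least 10 counts in every library. Their summed level was 5102 to 13594 CPM (counts scaled to a common library size). Fcgr1 was called lower with regorafenib whatever the state, at log2 ratios of -1.48 (M0), -1.23 (M1) and -1.25 (M2). Cd14 was called lower for the M0 pair only (-1.04). Mertk was called higher for the M0 pair (1.59) and the M2 pair (1.34). No other macrophage marker was called between regorafenib and control. Summed counts were 0 to 12 for 7 adipocyte markers, 0 to 5 for 7 hepatocyte markers and 1 to 23 for 8 lymphocyte markers. Fibroblast markers summed to 10.3 CPM in M0 control and 22.1 in M0 regorafenib, 24.7 and 31.7 in the M1 pair, and 9.83 and 19.2 in the M2 pair. Neutrophil markers, nearly all Mpo, summed to 80.7 and 156 CPM in M0, 87.2 and 89.5 in the M1 pair and 87.1 and 131 in the M2 pair. Dendritic cell markers went from 10.8 to 14.2 CPM in M0, from 49.0 to 66.6 in M1 and from 161 to 341 in M2, led by Itgax in M0 and M2. Ly6g and Retnlg of the neutrophil list and Siglech of the dendritic cell list had 0 counts in every library, and Lum of the fibroblast list had 0 in M0 and M2. The summed level of each of these 3 lists was higher with regorafenib in every state. In M0, 2 of 5 fibroblast markers tested were called higher, Col1a1 with 37 and 114 counts and Col1a2 with 46 and 188, and all 5 had a ratio above 0. Mpo had 2479 and 5124 counts there (log2 ratio 0.95), and of 2 dendritic cell markers 0 were called higher and 1 lower. In M2, 1 of 3 fibroblast markers (Pdgfrb, 1.10) and 1 of 2 neutrophil markers (Cxcr2, 6 and 18 counts) were called higher. So were 2 of 2 dendritic cell markers, Itgax at 5849 and 9449 counts and Zbtb46 at 15 and 59. In M1, 0 of 4 fibroblast markers were called higher and 1 lower, 0 of 2 neutrophil markers were called, and 1 of 3 dendritic cell markers was called higher. The part of these lists in the results on Apoe and the other genes was not tested.

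Regorafenib was followed by higher Apoe and Abca1 in M0 and M2 and by no called change of any of the 10 genes in M1. In M0, 4 of the 10 genes were called higher (Apoe, Abca1, Mylip and Pltp) and 1 lower (Lpl), where 8.27% of 13964 genes tested were called higher and 10.2% lower. In M2, 2 were called higher (Apoe and Abca1) and 0 lower, against 5.23% and 4.11% of 13813 genes. In M1, 0 of the 10 were called in either direction, with Pparg under the count minimum, against 1.27% higher and 2.47% lower of 13440 genes. The median log2 ratio of the 10 genes was 0.76 in M0, 0.04 in M1 and 0.34 in M2, and that of all genes tested was 0.00, -0.02 and -0.03. The M1 median of the 10 genes includes Pparg, while that of all genes covers tested genes only. In these bulk libraries, more cells that express a gene and more RNA per cell cannot be told apart.

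**Figure D1:**
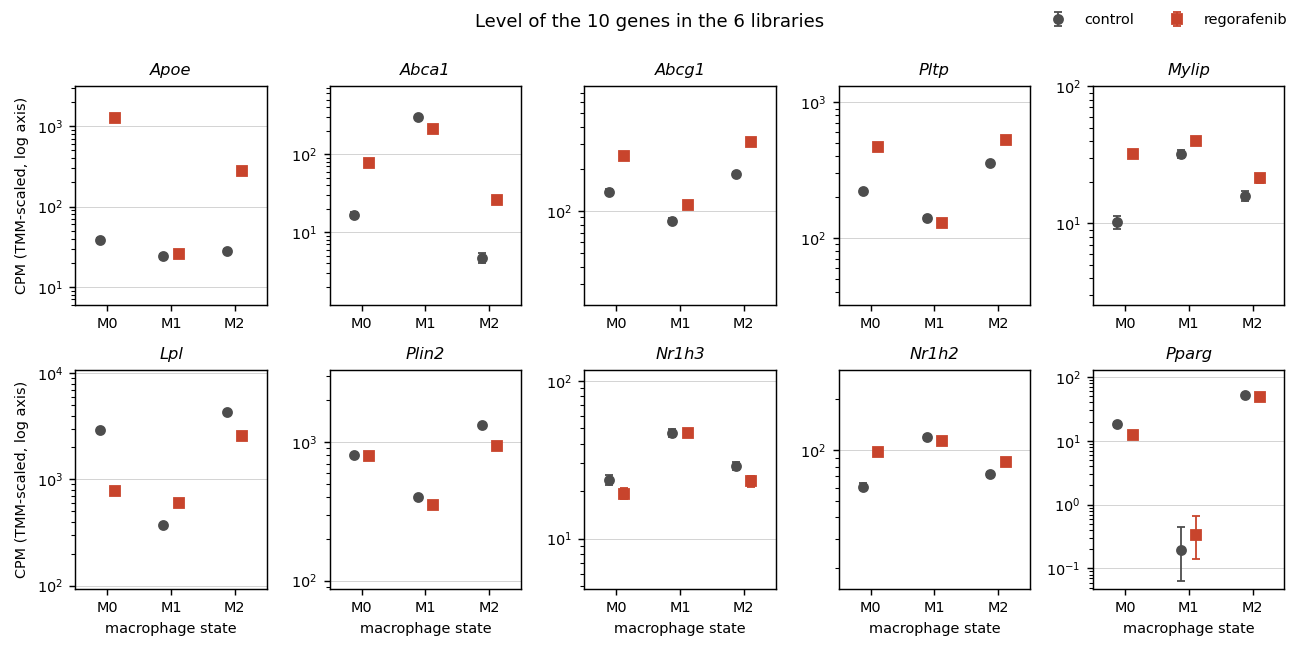
Level of each of the 10 genes (CPM after TMM scaling, log axis) in M0, M1 and M2, control as grey circles and regorafenib as red squares. Bars are exact Poisson 95% intervals, which cover counting error only, and most are smaller than the symbols. Apoe stands at 1258 CPM in M0 regorafenib and between 23.9 and 38.5 CPM in the 3 controls.

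Apoe (ENSMUSG00000002985.16, GRCm38 chr7:19696109-19699188, minus strand) encodes apolipoprotein E, the particle protein that macrophages secrete with cholesterol and that binds lipoprotein receptors. It had 1184 counts in M0 control and 41460 in M0 regorafenib, 617 and 613 in the M1 pair, and 1018 and 7659 in the M2 pair. The regorafenib libraries of M0 and M2 stood above all 3 controls, and the M1 library did not. Regorafenib against control gave a log2 ratio of 5.03 (95% interval 4.94 to 5.11) in M0, which is a 32.6-fold higher level and the 12th highest ratio of 13964 genes. It was 3.30 (3.20 to 3.39) in M2, or 9.82-fold, the 35th highest of 13813. In M1 it was 0.09 (-0.07 to 0.25), an interval that includes 0. Apoe took 0.141% of all counts in M0 regorafenib. Hepatocytes are the other main source of Apoe in the body, and of their markers Alb had 0 counts and Apoa1 at most 1 in every library.

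Abca1 (ENSMUSG00000015243.4, chr4:53030787-53159895, minus strand) encodes the membrane pump that loads cholesterol and phospholipid onto free apolipoproteins. It had 513 counts in M0 control and 2520 in M0 regorafenib, 7675 and 5144 in the M1 pair, and 172 and 730 in the M2 pair. Both M1 libraries stood above the other 4, and in M0 and M2 the regorafenib library was the higher of the pair. The log2 ratio was 2.19 (2.06 to 2.33) in M0 and 2.47 (2.23 to 2.72) in M2, or 4.58-fold and 5.54-fold, and the M2 ratio was the 102nd highest of 13813. In M1 it was -0.48 (-0.53 to -0.43), below 0 and short of a call.

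Abcg1 (ENSMUSG00000024030.6, chr17:31057675-31117988, plus strand) encodes a half-transporter that passes cholesterol to HDL particles. It had 4251 counts in M0 control and 8180 in M0 regorafenib, 2205 and 2666 in the M1 pair, and 6769 and 8766 in the M2 pair. Its ratio was above 0 in all 3 states and under 2-fold in each, with log2 values of 0.84 (0.79 to 0.90) in M0, 0.37 (0.29 to 0.46) in M1 and 0.76 (0.71 to 0.80) in M2. Abcg1 was thus the only one of the 2 transporters whose ratio had the same sign in every state.

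Pltp (ENSMUSG00000017754.13, chr2:164839518-164857711, minus strand) encodes phospholipid transfer protein, a secreted protein that remodels HDL. It had 6825 counts in M0 control and 15396 in M0 regorafenib, 3591 and 3095 in the M1 pair, and 13070 and 14709 in the M2 pair. The log2 ratio was 1.07 (1.03 to 1.11) in M0, which was called, 0.55 (0.52 to 0.59) in M2 and -0.11 (-0.18 to -0.04) in M1. Pltp overlaps Ctsa, a lysosomal protease gene on the other strand, and the strand setting of the counts was not stated. Ctsa had 35189 and 47477 counts in M0, 22544 and 22779 in the M1 pair, and 49180 and 43551 in the M2 pair, so any reads of Ctsa counted to Pltp cannot be told apart.

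Mylip (ENSMUSG00000038175.10, chr13:45389742-45412022, plus strand) encodes IDOL, a ubiquitin ligase that marks lipoprotein receptors for breakdown. It had 314 counts in M0 control and 1047 in M0 regorafenib, 825 and 965 in the M1 pair, and 576 and 597 in the M2 pair. M0 control was the lowest of the 6 libraries, and the called difference was in M0 with a log2 ratio of 1.64 (1.45 to 1.82), or 3.11-fold. The ratio was 0.33 (0.19 to 0.46) in M1 and 0.44 (0.27 to 0.60) in M2.

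Lpl (ENSMUSG00000015568.16, chr8:68880491-68907448, plus strand) encodes lipoprotein lipase, which frees fatty acids from the triglyceride of lipoproteins. It moved opposite to Apoe in M0. There were 90608 counts in M0 control and 25672 in M0 regorafenib, 9691 and 14526 in the M1 pair, and 157181 and 71224 in the M2 pair. In M0 and M2 the regorafenib library was the lower of the pair and in M1 the higher. The log2 ratio was -1.92 (-1.94 to -1.90) in M0, a 3.79-fold lower level that was called, -0.76 (-0.77 to -0.75) in M2 and 0.68 (0.65 to 0.72) in M1.

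Plin2 (ENSMUSG00000028494.12, chr4:86648386-86670060, minus strand) encodes perilipin 2, a coat protein of lipid droplets. It had 24734 counts in M0 control and 26000 in M0 regorafenib, 10396 and 8457 in the M1 pair, and 48407 and 25987 in the M2 pair. The log2 ratio lay at -0.03 (-0.05 to -0.00) in M0, -0.20 (-0.24 to -0.16) in M1 and -0.51 (-0.54 to -0.49) in M2, so no state had a called difference. A share of 0.115% of its 100-base words also occurs in other genes, and the other 9 genes shared none.

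None of the 3 receptor genes was called between regorafenib and control in any state. Nr1h3 (ENSMUSG00000002108.10, chr2:91184061-91202834, minus strand) had 727 counts in M0 control and 636 in M0 regorafenib, 1211 and 1133 in the M1 pair, and 1051 and 648 in the M2 pair. Its log2 ratios were -0.29 (-0.45 to -0.14) in M0, 0.00 (-0.11 to 0.12) in M1 and -0.31 (-0.46 to -0.17) in M2. Nr1h2 (ENSMUSG00000060601.13, chr7:44549616-44553951, minus strand) had 1872 and 3197 counts in M0, 3068 and 2729 in the M1 pair, and 2625 and 2375 in the M2 pair, control first. Its log2 ratios of 0.67 (0.59 to 0.75), -0.07 (-0.14 to 0.01) and 0.24 (0.16 to 0.32) stayed under 2-fold. Pparg (ENSMUSG00000000440.12, chr6:115360951-115490399, plus strand) had 559 and 411 counts in M0, 5 and 8 in the M1 pair, and 1885 and 1345 in the M2 pair. Its log2 ratio was -0.55 (-0.73 to -0.36) in M0 and -0.10 (-0.20 to -0.00) in M2, and with 5 and 8 counts the M1 ratio of 0.78 (-1.02 to 2.74) was too wide to give a direction. Gm13783, a transcript of unknown role that lies over Nr1h3 on the same strand, had at most 21 counts in a library.

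**Figure D2:**
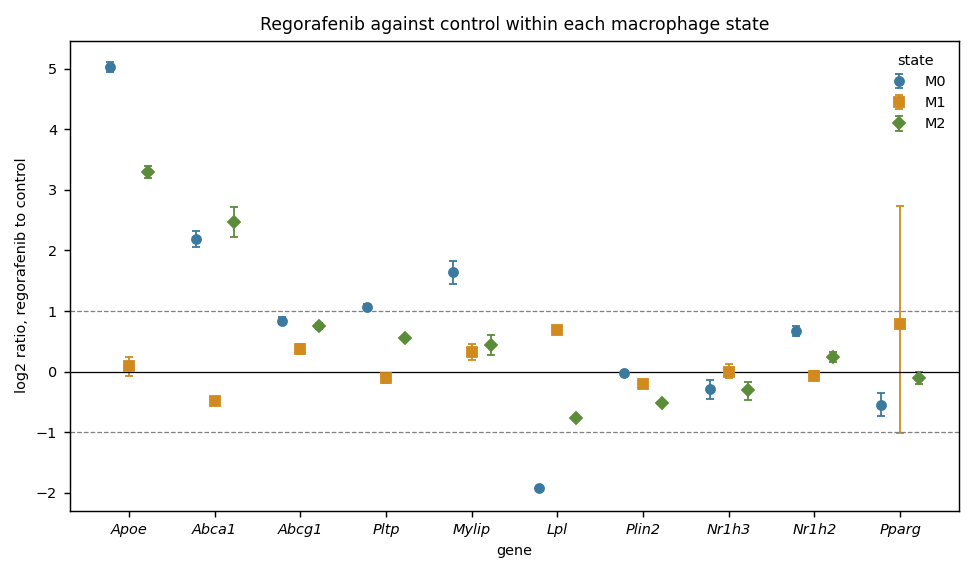
Log2 ratio of regorafenib to control for each of the 10 genes in M0 (blue circles), M1 (orange squares) and M2 (green diamonds). Bars are 95% intervals of counting error and dashed lines mark 2-fold. Apoe and Abca1 lie above the upper line in M0 and M2, Lpl lies below the lower line in M0 at -1.92, and no M1 value lies outside the lines.

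The size of the response differed between states by more than counting error for most of the genes, and this difference has no replicate. For Apoe the log2 ratio in M1 minus that in M0 was -4.94 (-5.12 to -4.76), and that in M2 minus that in M0 was -1.73 (-1.86 to -1.61). Abca1 differed by -2.67 (-2.82 to -2.53) between M1 and M0 and by 0.28 (-0.00 to 0.55) between M2 and M0, an interval that includes 0. Mylip differed by -1.31 (-1.54 to -1.08) between M1 and M0, by -1.20 (-1.45 to -0.95) between M2 and M0 and by 0.11 (-0.10 to 0.32) between M2 and M1. Among the receptors, the difference between M2 and M0 was -0.02 (-0.23 to 0.19) for Nr1h3, -0.43 (-0.55 to -0.32) for Nr1h2 and 0.44 (0.23 to 0.65) for Pparg.

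A fit over all 6 libraries with a term for state (edgeR's quasi-likelihood test, 2 residual degrees of freedom, Benjamini-Hochberg adjustment over 14110 genes) tested whether regorafenib had one shared effect in the 3 states. At an adjusted p under 0.05 it called 0 of 14110 genes (0%), with 1637 at an unadjusted p under 0.05, and DESeq2's Wald test called 296. None of the 10 genes passed by edgeR, and Abcg1 alone passed by DESeq2's Wald test (log2 fold change 0.66, adjusted p = 0.0326). The values that follow are edgeR's. Apoe had a log2 fold change of 2.95 (SE 1.03, adjusted p = 0.409), Abca1 1.43 (SE 0.620, adjusted p = 0.434), Abcg1 0.67 (SE 0.150, adjusted p = 0.315) and Mylip 0.80 (SE 0.289, adjusted p = 0.410). With 1 library per condition, the residual spread of this fit holds both the difference between states in the response and the variation between libraries, which cannot be told apart. Without the M1 libraries, which leaves M0 and M2, the same test called 380 genes, and Apoe (log2 fold change 4.19, adjusted p = 0.0459), Abca1 (2.35, 0.0399) and Abcg1 (0.82, 0.0498) passed, each higher with regorafenib in both states. M1 is the state in which Apoe and Abca1 were already seen not to be higher, so this value is a description. Without M0 or without M2, 0 genes passed, with adjusted p of 0.837 and 0.651 for Apoe (log2 fold changes 1.74 and 2.59), 1.0 and 0.990 for Abca1 and 0.745 and 0.817 for Abcg1. Over the 7 alternatives run, the adjusted p ranged from 0.0340 to 1.0 for Apoe, from 0.0399 to 1.0 for Abca1 and from 0.0326 to 1.0 for Abcg1.

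Without drug, M1 macrophages had far more Abca1 and far less Pparg and Lpl than M0 macrophages. Between M1 and M0 controls, 2 genes were called higher (Abca1 and Mylip) and 3 lower (Pparg, Lpl and Plin2), where 16.7% of 14168 genes were called higher and 18.7% lower. Abca1 was 17.8-fold higher in M1, with a log2 ratio of 4.15 (4.02 to 4.28), and Mylip 3.12-fold, at 1.64 (1.45 to 1.84). Pparg fell from 559 to 5 counts, a log2 ratio of -6.56 (-8.18 to -5.32), and Lpl was 7.86-fold lower, at -2.98 (-3.01 to -2.95). Plin2 stood at the threshold, at -1.0 (-1.03 to -0.97). The cholesterol genes did not move as a block, since Apoe (-0.69), Abcg1 (-0.70) and Pltp (-0.68) were lower by less than 2-fold while Abca1 was higher. Both LXR genes were higher by just under 2-fold, Nr1h3 at 0.99 (0.85 to 1.12) and Nr1h2 at 0.96 (0.88 to 1.05).

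Between M2 and M0 controls, 1 gene was called higher (Pparg) and 1 lower (Abca1), against 3.80% and 6.98% of 13830 genes. Pparg was 2.84-fold higher after IL4, with a log2 ratio of 1.5 (1.37 to 1.64), and Abca1 was 3.54-fold lower, at -1.83 (-2.08 to -1.57). Plin2 (0.72), Pltp (0.69), Mylip (0.63), Lpl (0.55) and Abcg1 (0.42) were all above 0 and short of 2-fold, and Apoe was at -0.47 (-0.59 to -0.35).

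With regorafenib in both libraries, 2 genes were called higher in M1 than in M0 (Nr1h3 and Abca1) and 5 lower (Pparg, Apoe, Pltp, Abcg1 and Plin2), against 15.8% and 20.2% of 14159 genes. These pairs share libraries with the regorafenib ratios above, so the values are given side by side and not as separate evidence. Apoe was at -0.69 in control and -5.63 (-5.75 to -5.51) in regorafenib, a 49.4-fold lower level in M1. The Abca1 ratio was 4.15 in control and 1.48 (1.41 to 1.55) in regorafenib, and that of Lpl was -2.98 and -0.37 (-0.40 to -0.34). Pparg was at -6.56 in control and -5.23 (-6.45 to -4.24) in regorafenib, and these intervals overlap. Between M2 and M0 with regorafenib, 2 genes were called higher (Pparg and Lpl) and 2 lower (Apoe and Abca1), against 3.89% and 4.06% of 13841 genes. The Pparg ratio was 1.95 (1.79 to 2.11), that of Lpl 1.71 (1.69 to 1.73), that of Abca1 -1.55 (-1.67 to -1.43) and that of Apoe -2.20 (-2.23 to -2.16).

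**Figure D3:**
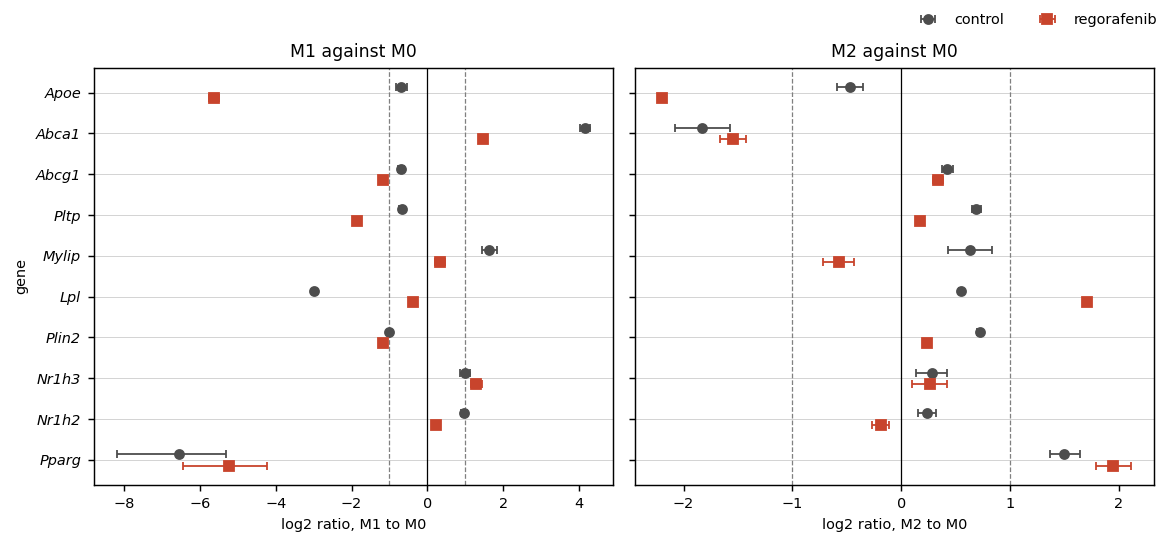
Log2 ratio of M1 to M0 (left) and of M2 to M0 (right) for each of the 10 genes, control libraries as grey circles and regorafenib libraries as red squares. Bars are 95% intervals of counting error and dashed lines mark 2-fold. Apoe lies at -0.69 and Abca1 at 4.15 between M1 and M0 controls, and at -5.63 and 1.48 with regorafenib.

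The same 6-library fit, with a term for regorafenib, compared the states over both drug arms. Between M1 and M0, 18.5% of 14110 genes passed as higher and 18.2% as lower by edgeR's adjusted p, and 6 of the 10 genes passed. Higher in M1 were Abca1 (log2 fold change 3.11, SE 0.765, adjusted p = 0.0252) and Nr1h3 (1.20, SE 0.183, adjusted p = 0.00529). Pparg (-5.78, SE 0.366, adjusted p = 0.000503), Pltp (-1.21, SE 0.301, adjusted p = 0.0267), Plin2 (-1.03, SE 0.204, adjusted p = 0.0122) and Abcg1 (-0.87, SE 0.184, adjusted p = 0.0154) were lower. Apoe (-2.88, SE 1.22, adjusted p = 0.119) did not pass, although it was lower in M1 in both arms, and over the 3 alternatives its adjusted p ranged from 0.00916 to 0.107. Lpl (-1.59, adjusted p = 0.0954), Mylip (1.0, adjusted p = 0.0749) and Nr1h2 (0.65, adjusted p = 0.0610) did not pass either. Between M2 and M0, 0.184% of genes passed as higher and 0.0142% as lower, and 0 of the 10 genes passed. Pparg came nearest, with a log2 fold change of 1.72 (SE 0.259, adjusted p = 0.0838), and over the 3 alternatives its adjusted p ranged from 4.66e-05 to 0.107. At an unadjusted p under 0.05, Pparg was the only one of the 10 below the limit in that comparison.

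Levels of different genes were compared per length, as counts per kilobase of exon and scaled by library size (RPKM). Lpl, Plin2 and Pltp led in M0 control, at 282, 229 and 86.7 RPKM, and Apoe came in the sixth place at 18.0, with an interval that overlapped that of Nr1h2 at 18.2. In M0 regorafenib Apoe came first at 588 RPKM, ahead of Plin2 at 225 and Pltp at 182, and Lpl came after these at 74.3. In M2 Apoe went from the seventh place at 13.0 RPKM to the fourth place at 128. It held the eighth place in M1 control, at 11.2 RPKM with an interval that overlapped those of Abcg1 at 11.7 and Mylip at 9.88. In M1 regorafenib it held the ninth, at 11.9 with an interval that overlapped that of Mylip at 12.4. By the longest transcript in place of exon length, Apoe held place 5 in M0 control, 7 in M1 control and 8 in M1 regorafenib. Abca1 was last in M0 control at 1.61 RPKM and in M2 control at 0.455, and in the fifth place in M1 control at 28.7. Across the 6 libraries the highest level stood above the lowest by 267-fold for Pparg, 63.1-fold for Abca1 and 52.7-fold for Apoe. The LXR genes varied least, by 2.44-fold for Nr1h3 and 1.95-fold for Nr1h2.

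The wider pathways were read from lists of genes, where the genes named are those with the 2 highest or 2 lowest ratios among those that reached 100 counts in some library, and any other gene was named after its values were seen. Of 22 LXR targets tested in M0, 5 were called higher and 6 lower, with a median log2 ratio of -0.27 against 0.00 for all genes. Of all genes tested in M0, 8.27% were called higher and 10.2% lower, and the shares were 5.23% and 4.11% in M2 and 1.27% and 2.47% in M1. The 5 higher were Apoe, Abca1, Mylip, Pltp and Mertk, a receptor for the uptake of dying cells that had 380 counts in control and 1230 in regorafenib. The 6 lower were Lpl, Cd5l, which encodes a protein secreted by macrophages, and 4 genes of fatty acid desaturation and elongation. Of the last, Fads2 had 934 and 281 counts (log2 ratio -1.83), Scd1 381 and 151 (-1.44), Scd2 3096 and 1272 (-1.39) and Elovl6 401 and 215 (-1.0). Without the 7 of the 10 genes that are on it, the list had 1 gene higher and 5 lower of 15 tested, with a median of -0.62. In M2, 3 of 22 were called higher (Apoe, Abca1 and Mertk) and 1 lower, Cd5l at -2.64 (-2.91 to -2.39), and the median was 0.05. In M1 only Elovl6 was called, with 11 and 25 counts, and the median was 0.02.

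Of 18 nuclear receptors and coregulators tested in M0, 3 were called higher and 0 lower, with a median of 0.33, beside 8.27% of all genes higher and 10.2% lower. Ppard, which encodes PPARδ, had 467 and 1347 counts (log2 ratio 1.43, 1.27 to 1.58). The RXR genes Rxrb, with 781 and 1911 counts (1.19, 1.07 to 1.31), and Rxra, with 1377 and 3313 (1.16, 1.07 to 1.26), were the other two. In M2, 2 of 18 were called higher, Ppard at 1.40 (1.21 to 1.60) and Ppargc1b, a coactivator, at 1.16 (0.90 to 1.41). In M1, 0 of 17 were called, and the median was -0.09. Ppara, Ppargc1a and Rxrg had at most 4 counts in any library.

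Of 20 PPAR targets tested in M0, 1 was called higher and 2 lower, with a median of 0.13, near the shares of all genes (8.27% higher and 10.2% lower). The lower genes were Lpl and Cd36, a scavenger receptor for oxidized lipoproteins and fatty acids with 8331 and 3659 counts (-1.29, -1.35 to -1.23). The higher one was Pdk4, a brake on glucose oxidation, with 2 and 17 counts and a ratio of 2.99 (0.91 to 6.14). In M2, 0 of 20 were higher and 1 was lower, Cd36 at 51853 and 10537 counts (-1.91, -1.95 to -1.88). In M1, 0 of 18 were called in either direction. Between M2 and M0 controls, 18 of 19 genes tested had a ratio above 0, with a median of 0.35 against 0.01 for all genes, and 1 was called higher, Cd36 at 2.39 (2.36 to 2.42). Angptl4, an inhibitor of lipoprotein lipase, was called lower with 85 and 48 counts (-1.07, -1.62 to -0.55), and of all genes 3.80% were higher and 6.98% lower in that pair.

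In the list of cholesterol trafficking and efflux, 4 of 17 genes were called higher and 0 lower in M0, 3 and 0 in M2, and 1 and 0 in M1, beside 8.27%, 5.23% and 1.27% of all genes higher. Beside Apoe, Abca1 and Pltp, this was Cyp27a1, the mitochondrial enzyme that makes 27-hydroxycholesterol, a ligand of LXR. It had 192 counts in M0 control and 1277 in M0 regorafenib, 9 and 20 in the M1 pair, and 213 and 757 in the M2 pair. The log2 ratio of Cyp27a1 was 2.63 (2.41 to 2.86) in M0, 1.25 (0.05 to 2.57) in M1 and 2.21 (1.99 to 2.44) in M2, so it was called in every state. The median of the list was 0.23, -0.04 and 0.21 in M0, M1 and M2. Without the members among the 10 genes, 1 of 13 was higher in each state, with medians of 0.16, -0.04 and 0.04.

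SREBP2 switches on genes of cholesterol synthesis when sterol is scarce. Of 16 tested in M0, 0 were called higher and 2 lower, near the 10.2% of all genes called lower, and the median was -0.44 against 0.00 for all genes. The lower genes were Sqle at -1.61 (-1.70 to -1.52) and Idi1 at -1.12 (-1.32 to -0.92). In M2 the median was -0.17 against -0.03 for all genes, and Sqle was called at -1.07 (-1.14 to -0.99). In M1 the median was also -0.17, and Fdps was called lower with 25 and 9 counts. Between M1 and M0 controls 9 of 16 were called lower, beside 18.7% of all genes, and the median was -1.15 against -0.05, with Dhcr7 at -3.09 (-3.39 to -2.81).

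Lipoprotein receptors, which take up particles that bear Apoe, and their regulators went both ways in M0, with 4 of 8 genes called higher and 2 lower, beside 8.27% and 10.2% of all genes. The median was 0.62, and without Mylip it was -0.02, with 3 of 7 genes higher and 2 lower. Sorl1 went from 360 to 1333 counts (1.79, 1.62 to 1.96), Sort1 from 1995 to 5133 (1.26, 1.19 to 1.34) and Vldlr from 15 to 68 (2.08, 1.26 to 2.99), beside Mylip. Lrp8, a receptor for Apoe, went from 1265 to 361 (-1.91, -2.08 to -1.74). Lrp1, a large endocytic receptor, went from 88835 to 47029 (-1.02, -1.04 to -1.0). In M2, Sort1 and Sorl1 were called higher and Lrp1 lower, and in M1 0 of 8 were called.

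Among 15 genes of lipid droplets and triglyceride handling tested in M0, 3 were called higher and 0 lower, with a median of 0.50, beside 8.27% of all genes higher and 10.2% lower. Lpin1, a phosphatidic acid phosphatase, had 126 and 381 counts (1.49, 1.20 to 1.80), Pnpla2, the triglyceride lipase ATGL, 1454 and 3796 (1.28, 1.20 to 1.37), and Mgll 24 and 63. In M2, Lpin1 was higher at 2.34 (2.05 to 2.64) and Hilpda, an inhibitor of ATGL, lower at -1.04 (-1.32 to -0.76). In M1, 0 of 13 were called. Of 7 partners and relatives of lipoprotein lipase tested in M0, 0 were higher and 3 were lower, with a median of -0.44, and without Lpl 2 of 6 were lower, with a median of -0.18. The lower genes were Lpl and 2 with under 30 counts (Lipc and Lipg). In M2, 1 of 7 genes of this list was called lower (Lipc, 16 and 3 counts), and in M1 1 of 6 (Lipg, 28 and 7). Of all genes, 10.2% were called lower in M0, 4.11% in M2 and 2.47% in M1. Gpihbp1, Apoc3 and Apoa5 had 0 counts in every library.

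**Figure D4:**
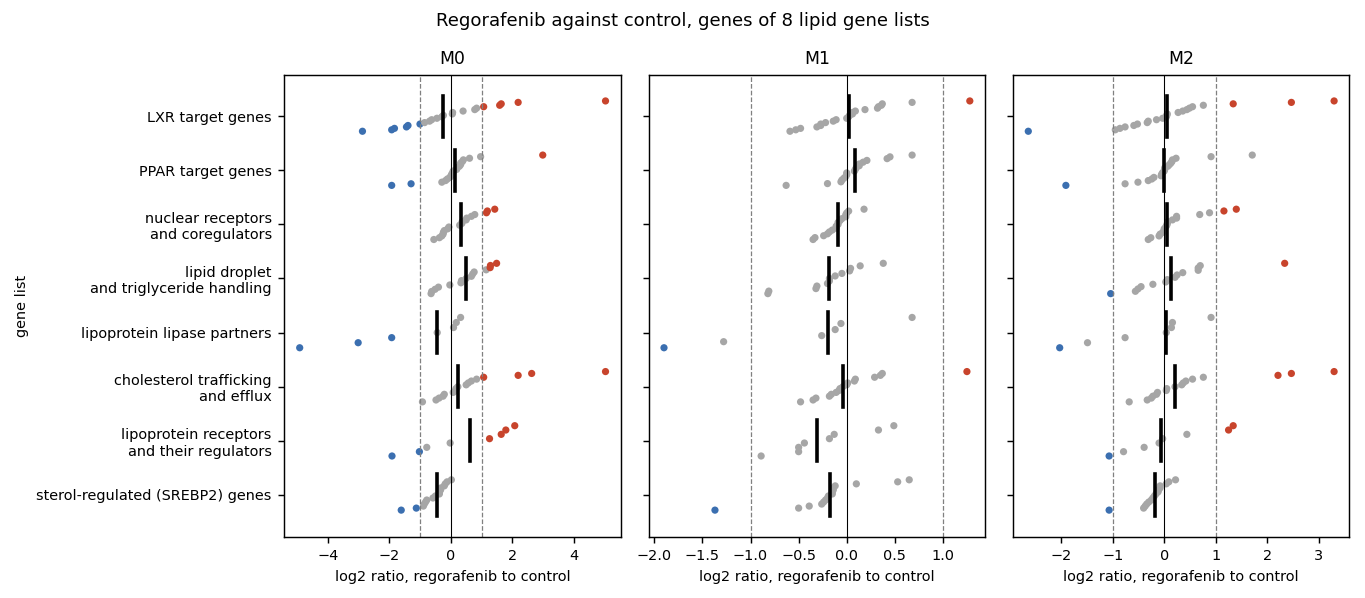
Log2 ratio of regorafenib to control for each tested gene of 8 lists in M0, M1 and M2. Red points were called higher, blue points lower and grey points were not called, black bars are medians and dashed lines mark 2-fold, and the 3 panels have different horizontal scales. The LXR list spreads from -2.87 (Cd5l) to 5.03 (Apoe) in M0.

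Apoe lies in a cluster of apolipoprotein genes on chromosome 7, and 10 genes beside it were read to see whether the difference spread along the chromosome. Tomm40, which starts 16.2 kb upstream, had 1464 and 949 counts in M0, a log2 ratio of -0.73 (-0.85 to -0.61), opposite to Apoe. Apoc1, which starts 6.53 kb downstream and shares macrophage and liver enhancers with Apoe, had 8 counts in M0 regorafenib and 0 in each of the other 5 libraries. Apoc4 had 0 counts in every library, and Apoc2 had 1 in M0 regorafenib alone. Clptm1, 34.2 kb downstream, stayed at -0.16 (-0.21 to -0.10) in M0 and -0.09 (-0.15 to -0.03) in M2. Farther away, Relb, a subunit of NF-κB 69.8 kb downstream, was called higher in M0 at 1.23 (1.07 to 1.38) and in M2 at 1.80 (1.58 to 2.01). Nectin2, 51.3 kb upstream, was called in M0 at 1.13 (0.93 to 1.33), and Bcl3 in M2 at 1.18 (0.91 to 1.45). Of 6 neighbours tested, 2 were called higher in M0 and 0 in M1, and M2 had 3, with Bcam (8 and 19 counts) among them. Of all genes, 8.27%, 1.27% and 5.23% were called higher in M0, M1 and M2.

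**Figure D5:**
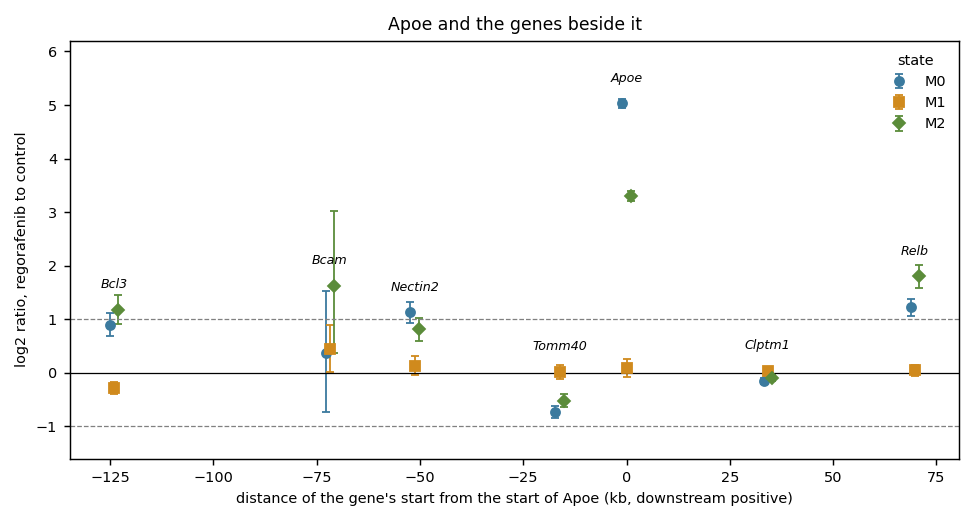
Log2 ratio of regorafenib to control for Apoe and the neighbours with enough counts, against the distance of each start from the start of Apoe (kb, downstream positive), in M0 (blue circles), M1 (orange squares) and M2 (green diamonds). Points of a gene are set slightly apart sideways, bars are 95% intervals of counting error, and dashed lines mark 2-fold. Tomm40, at -16.2 kb, lies at -0.73 in M0 where Apoe lies at 5.03.

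The genes with the pattern most like Apoe over the 6 libraries, by Pearson's r of log2 CPM among 5727 genes, were Itm2b (0.9995), Vmac (0.9989), Snrk (0.9949), Tnfaip8l2 (0.9925) and Dtx3 (0.9919). Itm2b, a membrane protein gene, had 23938 counts in M0 control and 61841 in M0 regorafenib, 17537 and 16882 in the M1 pair, and 25954 and 36736 in the M2 pair. In CPM its libraries stood in the same order as those of Apoe over a far smaller range, from 679 in M1 control to 1876 in M0 regorafenib. For Abca1 they were Zmynd15 (0.9974), Nlrc4 (0.9969), Gtpbp2 (0.9964), Ppard (0.9964) and Hook2 (0.9952). Nlrc4, an inflammasome sensor, had 188 and 395 counts in M0, 612 and 480 in the M1 pair, and 96 and 185 in the M2 pair. Among the 10 genes themselves, Pltp and Abcg1 were most alike (r = 0.97) and Lpl and Abca1 most opposite (r = -0.97). These values describe 6 libraries that share states and drug arms, and high values are common over so few points.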

How the data were processed

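RNA was sequenced (TruSeq Stranded mRNA, paired reads of 100 bases) from 6 BMDM libraries, 1 for each of M0, M1 and M2 with and without regorafenib. Per the methods of the study, the authors trimmed reads with cutadapt 2.4, mapped them to GRCm38 with STAR 2.7.2a and deposited whole-number counts per gene on Gencode M19. Which strand column was taken is not given in the sources used here. Gene names, positions and exon lengths came from Gencode M21 (GRCm38). Of 54446 IDs, 53229 matched with their version, 1180 without it (Abcg1 among them) and 37 had no name.

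Counts were scaled with TMM (edgeR 4.0.16, R 4.3.3) over the 6 libraries. Pairs of libraries were compared by the log2 ratio, with a count of 0 set to 0.5 and the conditional exact binomial 95% interval. Additive fits of state and drug used edgeR's quasi-likelihood test, with DESeq2 1.42.0 as an alternative. RPKM used union exon length. Intervals cover counting error only, and p-values measure the spread between single libraries of different states or drug arms. NOISeq, the test of the study's methods for data without replicates, was re-implemented (Python 3.11.15, numpy 2.4.6, scipy 1.17.1). The scripts were tested on simulated counts. Promoters came from RefSeq (GRCm38.p6).

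The 10 genes, the lists and the tests were chosen with earlier results of these data known. The text names all 10 genes, the examples of a list by the rule given there, and the 5 genes most like Apoe and Abca1 (at least 100 counts in a library and a range of at least 1 on the log2 scale). Items withheld from this text were taken out of the lists after their values were known and are not reported here.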

Additional observations from a re-analysis of the deposited data

Results flagged for a closer look

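The response to regorafenib had opposite signs in different states, with intervals of counting error that left out 0 in each state, for 3 of the 10 genes, and with 1 library per condition the difference was not tested. For Abca1 the log2 ratio in M1 minus that in M0 was -2.67, and that in M2 minus that in M1 was 2.95, since the ratio was below 0 in M1 and above 0 in M0 and M2. For Pltp these differences were -1.19 and 0.67, with the same signs of the ratios. For Lpl they were 2.61 and -1.44, since the ratio was above 0 in M1 and below 0 in M0 and M2.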

How the results depend on the processing

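Of 70 ratios (10 genes in 7 pairs of libraries), 25 were called. The 25 calls were kept with at least 100 counts and by NOISeq without replicates, and 24 were kept with total counts, DESeq2's size factors, TMM over the pair or 1 CPM added. No sign changed in the last 4 of these settings, which alter the ratio. Leaving out the minimum count added 0 calls, TMM over the pair added 1 and a limit of 1.5-fold added 13. The lost call was Plin2 between M1 and M0 controls in 3 of those 4 (-0.96, -0.99 and -1.0) and Nr1h3 between M1 and M0 with regorafenib with total counts (0.87). In that scaling all genes shifted by -0.44 between M1 and M0 controls and by -0.41 with regorafenib. The share of higher calls went from 47.2% to 29.4% and from 43.9% to 27.5%, and Apoe (-1.13), Abcg1 (-1.14) and Pltp (-1.12) were then called lower in M1 control. Nr1h3 and Nr1h2 passed 2-fold there with DESeq2's size factors (1.03 and 1.01).

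Counts of all called genes depended on the rule. For regorafenib against control they were 2578 in M0, 503 in M1 and 1290 in M2. They were 1594, 176 and 655 with at least 100 counts, 1495, 154 and 565 with 1 CPM added, 4714, 1087 and 2773 at 1.5-fold, and 1415, 137 and 545 by NOISeq. For M2 against M0 they were 1492 in control and 1100 with regorafenib, and 863 and 492, 780 and 451, 2611 and 2180, and 736 and 425 in the same settings. For M1 against M0, NOISeq called 3319 of 5017 in control and 3356 of 5100 with regorafenib. M2 against M0 across drug passed 28 genes by edgeR, 410 by DESeq2 and 408 without a filter on low counts. Regorafenib across states passed 0 by edgeR, 296 by DESeq2, 333 without the filter, and 0 to 380 when a state was left out, with 380 without M1. The cause was not tested.

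Among the 10 genes, Apoe passed for regorafenib across states without the filter (adjusted p = 0.0340) and Abcg1 by DESeq2 (0.0326). For M1 against M0, Mylip passed by DESeq2 (0.0343), Lpl with total counts (0.0428), and Apoe (0.00916), Lpl (0.00694) and Mylip (0.0313) without the filter. With the longest transcript in place of exon length, 43 of 60 places in the order of levels were kept. The fit across states already sets drug against control within each state, and without its term for state 0 genes passed, with Apoe at 4.10 and Abca1 at -0.02 (1.43 with the term). At 5 and 8 counts, a change of Pparg in M1 was not detectable at this depth.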
